A study of Homo sapiens with 18 samples.

Results

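Long intergenic noncoding RNAs (lincRNAs) detected in a pair of colorectal cancer cell lines were examined for their response to oxaliplatin (OXA) and Curcumin. The members were the gene names of the form LINC followed by digits, read from 60-base array sequences, and they were selected on a measured value. A name entered when at least 1 of its spots was well above background, by the scanner software's own flag, on all 3 arrays of at least 1 of the 6 groups. Of 627 LINC names on the array, 325 met this rule, with 571 of their 1396 spots. The name is that of the array's design, and 218 of the 325 had their brightest sequence well above background on all 18 arrays.

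Long noncoding RNAs are transcribed, and often spliced and polyadenylated, like messenger RNAs but are not known to be translated, and the intergenic kind lies between protein-coding genes. Some act where they are made, on neighbouring genes, and others in the nucleus or cytoplasm as scaffolds, decoys or binding partners of proteins and microRNAs. Many are specific to a cell type and present at low levels, and several are known from colorectal tumours or from the response to DNA damage. OXA is a platinum drug that forms DNA adducts, and Curcumin is a plant polyphenol known to inhibit NF-κB signalling.

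HT29 is a human colorectal adenocarcinoma line and HTOXAR3 is its subline with resistance acquired under rising OXA doses. Cells of each line were left untreated, or were exposed for 24 h to OXA alone or to OXA plus Curcumin, with 3 biological replicates per group and 1 array per replicate. The OXA dose was 10 µM for HT29 but 30 µM for HTOXAR3, while Curcumin was used at 10 µM throughout. A response that differs between the lines therefore also compares different OXA doses, and line and dose cannot be told apart. There was no group with Curcumin alone, so its effect was measured only on top of OXA. HTOXAR3 stands for 1 resistant subline of 1 parental line. The labels and the study's array methods call the control groups untreated, another passage of its text speaks of vehicle treatment, and this was not resolved here.

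Across the 18 arrays, between 52.4% and 63.6% of 58717 transcript spots were well above background, the lowest being untreated HTOXAR3 replicate 2. Epithelial markers checked the labelled cell type. Of 12 such genes, 9 were well above background on all 18 arrays, EPCAM and the keratins KRT8 and KRT18 among them, while CDH17 was well above background on all 3 arrays in no group. The summed level of the epithelial list, as log2 of the summed intensities, ran from 19.49 to 19.75 over all arrays. Of 5 leukocyte markers on the array 4 were well above background on all 18 arrays (PTPRC and CD68 among them), with a summed log2 level from 10.58 to 11.65. Of 6 fibroblast markers, 0 were well above background on all 18 arrays, and of 4 endothelial markers 2 were (VWF and CDH5). At baseline 2 of the 9 epithelial genes detected on all arrays were lower in HTOXAR3 and the others, KRT20 and CDX1 among them, did not pass. The 2 were VIL1 and LGALS4, which mark differentiated enterocytes, the log2 change from HT29 to HTOXAR3 being -1.61 ± 0.07 (SE) and -2.08 ± 0.07 (adjusted p = 1.6e-08 and 1.2e-09 in limma), and VIL1 also rose with OXA in HT29 by 1.06 ± 0.07 (adjusted p = 1.2e-06). CDH17, outside the 9, also passed at baseline, lower in HTOXAR3 (-1.55 ± 0.23, adjusted p = 0.0019), from signals near background. Of all names, 11.5% passed at baseline, and 18.6% in HT29 and 17.5% in HTOXAR3 with OXA plus Curcumin. With OXA plus Curcumin 3 of the 9 rose in HT29, and 3 rose and 1 fell in HTOXAR3. The part of these differences in the lincRNA values was not tested.

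Array sequences behind the main results are given 5′ to 3′ in the sense of the transcript, each with its GRCh37 position from the array's annotation. None of them shares a run of 20 or more bases with the sequence of another gene name on the array, so no letters are set in capitals. The first 3 are shown because the lincRNA answered OXA differently in the 2 lines:
LINC00162 (chr21:46419129-46419188, minus strand): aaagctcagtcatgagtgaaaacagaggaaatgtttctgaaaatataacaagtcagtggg
LINC00704 (chr10:4692378-4692437, minus strand): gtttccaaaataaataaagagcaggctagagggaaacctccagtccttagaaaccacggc
LINC01186 (chrX:46185857-46187012, minus strand, across a splice junction): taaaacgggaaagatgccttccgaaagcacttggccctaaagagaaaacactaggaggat
Another 3 carry the largest changes with OXA that were shared by both lines:
LINC01003 (chr7:152162443-152162502, plus strand): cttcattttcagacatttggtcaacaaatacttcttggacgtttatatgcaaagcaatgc
LINC00310 (chr21:35555366-35555425, plus strand): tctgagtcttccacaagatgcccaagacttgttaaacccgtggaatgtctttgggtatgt
LINC00886 (chr3:156470852-156470911, minus strand): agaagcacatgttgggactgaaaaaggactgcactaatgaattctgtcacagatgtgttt
The next pair rose when Curcumin was added to OXA:
LINC00035 (chr7:73150088-73150147, plus strand): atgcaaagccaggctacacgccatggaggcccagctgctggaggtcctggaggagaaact
LINC00942 (chr12:1613531-1613590, plus strand): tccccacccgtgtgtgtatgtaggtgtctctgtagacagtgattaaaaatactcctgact
The last is from LINC00963, whose sequences moved in opposite directions:
LINC00963, next brightest (chr9:132266126-132266185, plus strand): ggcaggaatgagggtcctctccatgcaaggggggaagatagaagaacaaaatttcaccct

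The LINC label did not always mean a noncoding gene. RefSeq (GRCh38.p14), used for names and classes alone, matched 264 of the 325 members by symbol, 41 by accession and 19 by an older symbol, and 1 member was left without a match. It classed 303 as long noncoding RNA, 19 as protein-coding and 2 as pseudogenes, and 60 now carry another symbol. The 19 include genes for short membrane proteins, such as LINC00493 (now SMIM26) and LINC00998 (SMIM30), and LINC01420 (NBDY). Another 9 members are now named as divergent transcripts of a coding gene, 6 as antisense or overlapping transcripts and 3 as host genes of microRNAs. A probe carries no information on translation, so values are given under the array's names.

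Detection, on which the members were chosen, is given as a description. By spots, the share of names meeting the rule was 51.8% for LINC names, 48.9% for other names that RefSeq lists as long noncoding RNA, 77.0% for other protein-coding names and 60.6% for all other names. Brightest sequences well above background on all 3 arrays numbered 277 in untreated HT29, 306 in HT29 with OXA and 277 with OXA plus Curcumin. In HTOXAR3 the numbers were 223 untreated, 305 with OXA and 268 with OXA plus Curcumin, and the low untreated number includes the array with the fewest detected spots. At the edge of the rule, LINC00343 was inside with 3 of 18 arrays, all of 1 group, through a sequence other than its brightest, and LINC00269 was outside with 11 of 18 because no group reached 3 of 3. Outside were 302 names, of which 33 had 2 of 3 arrays in their best group and 146 had no array at all.

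LINC01116 and LINC00202-2 were detected throughout one line and on no array of the other. LINC01116 was well above background on all 9 HT29 arrays. Its log2 intensities were 5.88, 5.90 and 6.16 in untreated HT29 and 3.35, 2.90 and 3.82 in untreated HTOXAR3, where the spot was not well above background. With each HTOXAR3 array entered at the higher of the spot's own value and the lowest signal well above background there, it was at least 5.93-fold lower in HTOXAR3. LINC00202-2 had the opposite pattern, with 3.45, 3.57 and 3.17 in untreated HT29 against 5.65, 5.83 and 5.99 in untreated HTOXAR3, at least 5.39-fold higher on the same terms. Both entered the members through the line in which they are high, so no test of this difference is given. It belongs to a group of near-identical copies, so the copy it reports is uncertain.

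In what follows a member passed a comparison when limma's moderated test gave a Benjamini-Yekutieli adjusted p below 0.05 over all 36204 gene names together with a fold change above 1.2. Levels are log2 intensities after background correction and quantile normalization, changes are differences of such levels, and errors of changes are standard errors. Counts over all 325 members contain names that entered through a single group, so the 218 detected on all 18 arrays are set beside the 17278 other names that met the same condition.

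For the basal difference between untreated HTOXAR3 and untreated HT29, 38 of 325 members passed (22 higher and 16 lower in HTOXAR3), against 11.5% of all names. Of the 218, 31 passed, with 9.63% higher and 4.59% lower, while among the other names on all 18 arrays 11.5% were higher and 10.1% lower. The median change was -0.05 in the 218 and -0.02 in the others.

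Of the 218, the largest basal rise belonged to LINC00704, now MANCR, a transcript known from dividing breast cancer cells. Its log2 level was 7.71, 7.81 and 7.62 in untreated HT29 and 9.25, 9.27 and 9.26 in untreated HTOXAR3, without overlap, a difference of 1.55 ± 0.10 (adjusted p = 3.9e-07). LINC00460, which is often raised in carcinomas, stood at 8.76, 8.80 and 8.64 against 10.02, 10.07 and 10.11, a difference of 1.33 ± 0.07 (adjusted p = 3.8e-08). All 3 sequences of LINC00460 showed it, by 1.33, 1.45 and 1.73. LINC01183, now the coding gene CCDC192, was higher by 1.16 ± 0.12 (adjusted p = 6.4e-05).

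Among the falls, LINC01133, a lincRNA described in colorectal cancer, went from 8.18, 8.14 and 8.20 in HT29 to 6.33, 6.41 and 6.38 in HTOXAR3, a difference of -1.80 ± 0.08 (adjusted p = 8.1e-09). Its other sequences, well above background on 17 and on 10 of the 18 arrays, gave -1.91 and -2.50. LINC00675, now TMEM238L, fell from 10.83, 10.85 and 10.88 to 9.15, 9.05 and 9.05 (difference -1.77 ± 0.10, adjusted p = 1.1e-07). In both, the highest HTOXAR3 array lay below the lowest HT29 array. LINC00162 was also lower at baseline, by -1.11 ± 0.09 (adjusted p = 7.5e-06).

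OXA alone changed 59 of the 325 members in HT29 (25 higher, 34 lower), where 15.9% of all names passed. In HTOXAR3 it changed 30 (8 higher, 22 lower), where 10.2% of all names passed. With the mean of all sequences of a name in place of the brightest, the split was 24 higher and 20 lower in HT29, so that 54.5% rather than 42.4% of calls were rises, and 11 higher and 18 lower in HTOXAR3. Among the 218, 53 passed in HT29, 9.63% higher and 14.7% lower, against 15.9% and 15.1% of the other names on all arrays. In HTOXAR3 28 of the 218 passed, 3.21% higher and 9.63% lower, against 10.2% and 9.80% of the others. The share of lincRNAs that rose was thus below that of other names in both lines and the share that fell was close to it, as counts with no test of the list. The median change was -0.07 in HT29 (others -0.01) and -0.08 in HTOXAR3 (others close to 0 at -0.0016). In absolute size the median change was close to that of other names, at 0.24 in HT29 (others 0.25) and 0.18 in HTOXAR3 (others 0.20).

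**Figure D1:**
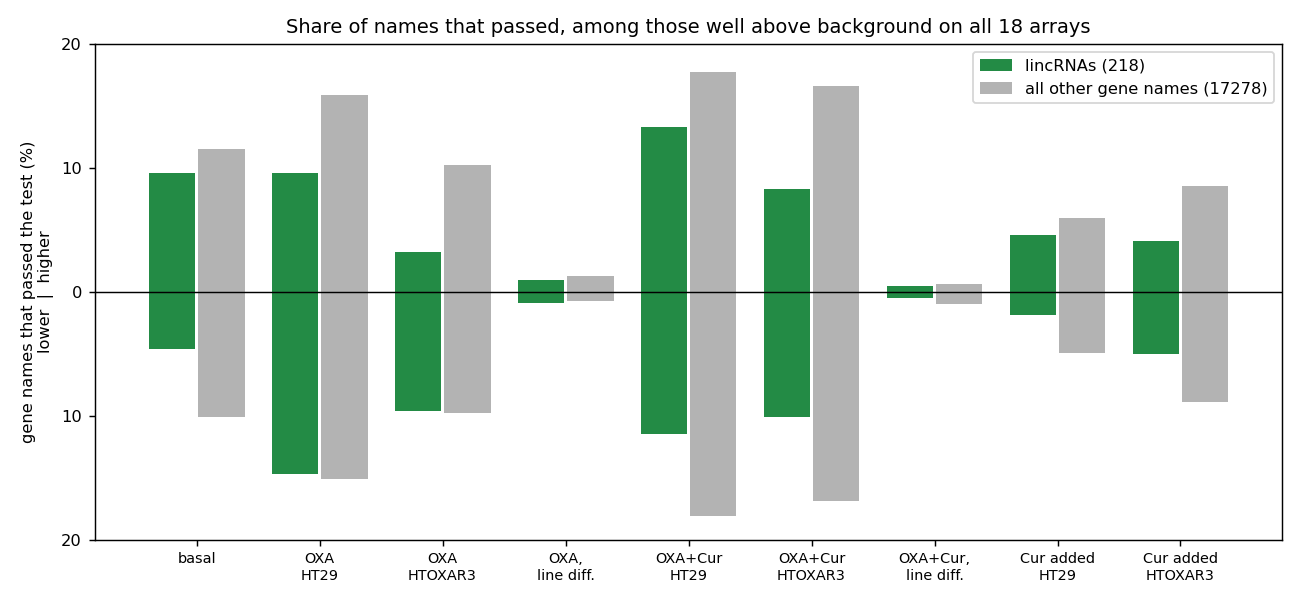
Percentage of gene names that passed each of 9 comparisons (x axis), higher above the zero line and lower below it, for the 218 lincRNAs (green) and the 17278 other names (grey) well above background on all 18 arrays. The green bar for rises with OXA in HTOXAR3 reaches 3.21% where the grey bar reaches 10.2%, while the bars for falls stand at 9.63% and 9.80%.

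Members that fell with OXA in both lines were led by LINC01003. Its level went from 9.91, 9.71 and 9.84 in untreated HT29 to 7.89, 8.21 and 8.04 with OXA. In HTOXAR3 it went from 10.22, 10.12 and 10.21 to 8.54, 8.60 and 8.64. Untreated and treated arrays were far apart in both lines, with changes of -1.78 ± 0.08 (adjusted p = 2.7e-08) and -1.59 ± 0.08 (adjusted p = 3.9e-07).

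LINC01311 fell by 0.82 on the log2 scale in HT29 and by 1.12 in HTOXAR3 (adjusted p = 0.00029 and 3.6e-05). Its array sequence on chromosome 22 lies 2767 bp from that of SLC25A1, the gene for the mitochondrial citrate carrier, which fell too, by 0.42 and 0.40. LINC00263, also known as OLMALINC, lies 9773 bp from SCD, the gene for stearoyl-CoA desaturase. LINC00263 changed by -0.94 ± 0.13 and -0.92 ± 0.13 (adjusted p = 0.00065 and 0.0014) and SCD by -0.62 ± 0.08 and -0.44 ± 0.08 (adjusted p = 0.00060 and 0.017). Neither pairing was tested as such. LINC01091 fell in HT29 by 1.41 (adjusted p = 0.017), a call that was lost on leaving out any 1 of the 6 HT29 arrays compared and with the processed signal, and the change was -0.75 with a background offset of 50.

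Among the 218, LINC00310 had the largest rise with OXA in HT29. It stood at 5.11, 5.44 and 5.20 in untreated HT29 and at 7.05, 7.27 and 7.34 with OXA. In HTOXAR3 it stood at 5.82, 5.37 and 5.63 untreated and at 6.99, 6.93 and 7.15 with OXA. The changes were 1.97 ± 0.12 (adjusted p = 3.7e-07) and 1.42 ± 0.12 (adjusted p = 2.4e-05). Over the alternative settings they ran from 0.91 to 2.30 in HT29 and from 0.86 to 1.54 in HTOXAR3, the lowest with the mean of all its sequences and with a background offset of 50, and each call held. MRPS6, for a mitochondrial ribosomal protein, has its array sequence 40139 bp away on the same strand and rose by 0.96 ± 0.06 and 0.72 ± 0.06 (adjusted p = 7.1e-07 and 2.8e-05).

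LINC00886 rose from 6.01, 6.07 and 6.63 to 7.57, 7.78 and 7.89 in HT29, a change of 1.51 ± 0.15 (adjusted p = 3.0e-05). In HTOXAR3 it rose from 6.62, 6.62 and 6.45 to 8.50, 8.43 and 8.17, by 1.80 ± 0.15 (adjusted p = 1.5e-05). Groups did not overlap in either line. A second sequence of LINC00886 detected on all arrays rose by 1.32 and 1.08, and with the mean of all its sequences the changes were 1.01 and 1.18. The nearest coding gene, TIPARP, did not pass in either line, with changes of 0.07 ± 0.07 and 0.18 ± 0.07.

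LINC00659 stood at 12.13, 12.18 and 12.03 in untreated HT29 and rose by 0.83 ± 0.06 in HT29 and by 1.21 ± 0.06 in HTOXAR3 (adjusted p = 1.0e-06 and 1.7e-07). Its 5 sequences, all detected on every array, rose by 0.79 to 0.93 in HT29 and by 1.21 to 1.28 in HTOXAR3. LINC00857 and LINC00842, both on chromosome 10, rose in both lines as well. LINC00857 changed by 1.07 ± 0.06 and 0.68 ± 0.06 (adjusted p = 2.4e-07 and 5.1e-05) and LINC00842 by 0.69 ± 0.14 and 0.70 ± 0.14 (adjusted p = 0.022 and 0.028).

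**Figure D2:**
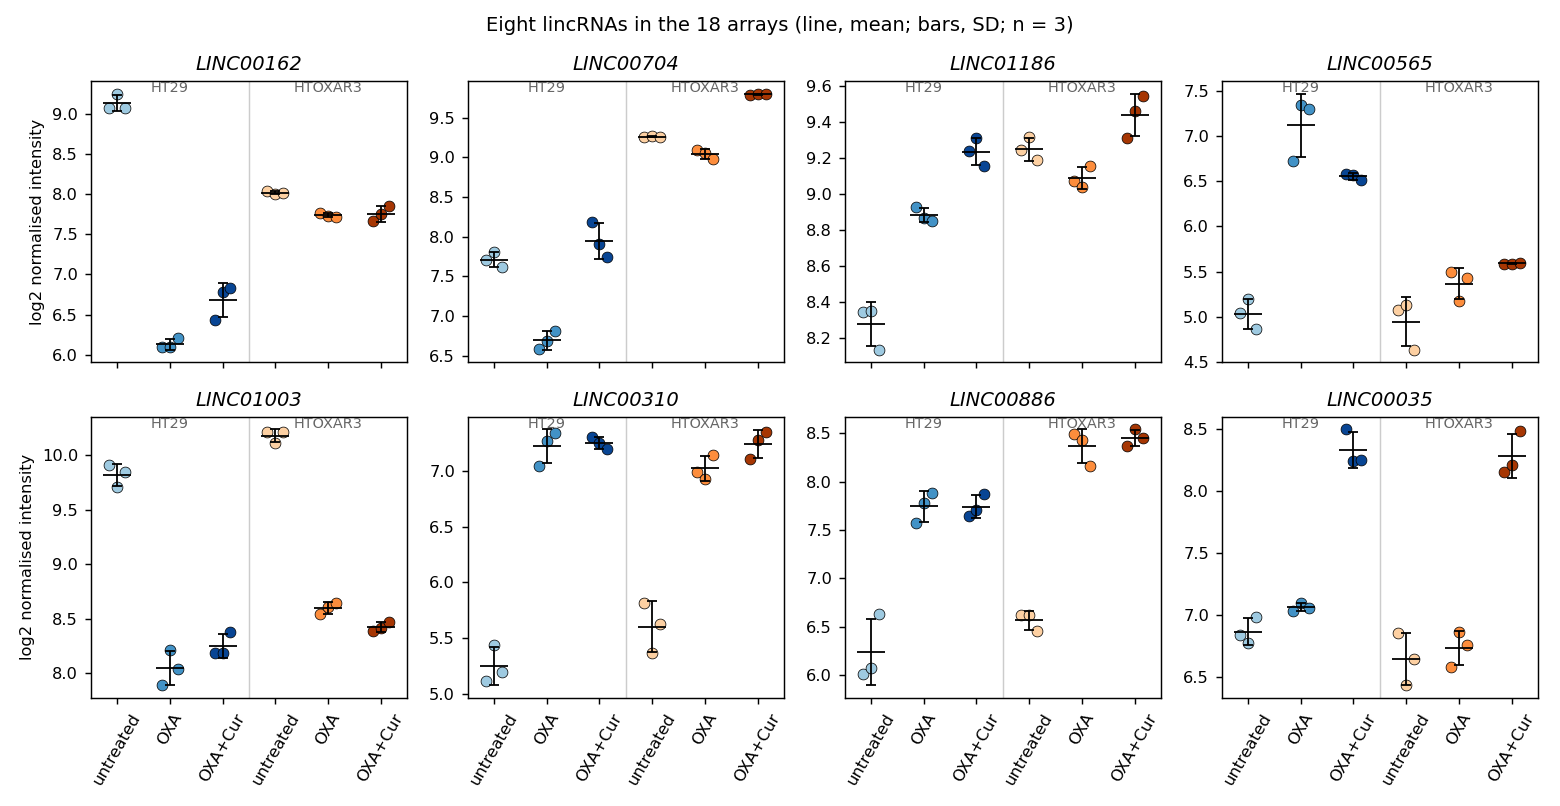
Log2 normalised intensity (y axis) of 8 lincRNAs on each of the 18 arrays, by line and treatment (x axis). Points are arrays, lines are means and bars are SD with n = 3. LINC00162 falls from above 9 to about 6.1 with OXA in HT29 and stays between 7.66 and 8.04 in HTOXAR3, while LINC01003, LINC00310 and LINC00886 move alike in both lines and LINC00035 rises where Curcumin was added.

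The 2 lines share no array, so their calls may be set side by side. Of the 53 members that passed with OXA in HT29 and the 28 in HTOXAR3, 23 were on both lists, which is 43.4% of the first and 82.1% of the second. All 23 moved the same way, 7 higher and 16 lower. Among the other names on all 18 arrays the shared names were 53.0% of the HT29 list and 82.0% of the HTOXAR3 list. Of the 53 from HT29, 52 (98.1%) had the same sign in HTOXAR3, against 96.3% for the other names, with a median absolute change of 0.69 in HT29, the line they were chosen in, and 0.36 in HTOXAR3. Over all 218 the median absolute changes were 0.24 and 0.18. Pearson's r across the 218 members was 0.70 and across the other names 0.81, a description only, since names on 1 array are not independent.

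The response to OXA itself differed between the lines for 5 members (2 more positive in HTOXAR3 and 3 more negative), against 1.01% of all names. Of the 218, 4 passed, 0.917% in each direction, against 1.24% and 0.729% of the others. With intensities scaled to the 75th percentile of each array after the same background correction, 4 of the 325 passed, 1 more positive and 3 more negative. The leading one was LINC00162, now PICSAR, first described in cutaneous squamous cell carcinoma. It fell from 9.07, 9.25 and 9.07 in untreated HT29 to 6.09, 6.09 and 6.21 with OXA, a change of -3.00 ± 0.09 (adjusted p = 6.6e-10). In HTOXAR3 it went from 8.04, 8.0 and 8.01 to 7.76, 7.73 and 7.71, a change of -0.28 ± 0.09 that did not pass (adjusted p = 0.51).

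The difference between the 2 responses of LINC00162 was 2.72 ± 0.13 (adjusted p = 7.4e-07). The second sequence of LINC00162 gave -2.16 in HT29, -0.11 in HTOXAR3 and a difference of 2.05. The nearest coding gene on the array, FAM207A (now SLX9), lies 24267 bp away on the opposite strand and showed the same contrast. FAM207A fell by 2.45 in HT29 (adjusted p = 2.8e-10) and changed by -0.03 ± 0.07 in HTOXAR3, a difference of 2.42 ± 0.10 (adjusted p = 8.7e-08). At baseline the pair differed, FAM207A being higher in HTOXAR3 by 0.40 ± 0.07 (adjusted p = 0.0062).

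LINC00704 fell with OXA in HT29 to 6.58, 6.68 and 6.82, a change of -1.02 ± 0.10 (adjusted p = 2.4e-05). In HTOXAR3 it stood at 9.10, 9.06 and 8.98 with OXA, a change of -0.22 ± 0.10 that did not pass. The difference of 0.80 ± 0.14 passed narrowly (adjusted p = 0.0497), and the call was lost when slide or replicate number entered as a block, with normexp values scaled to the 75th percentile, when its 3 sequences were averaged and on leaving out any array other than HT29 OXA plus Curcumin replicate 1 or 3. One other sequence of LINC00704 gave a difference of 0.75 and the third 0.29.

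LINC01186 rose with OXA in HT29 from 8.34, 8.35 and 8.13 to 8.92, 8.87 and 8.85, by 0.61 ± 0.08 (adjusted p = 0.00036). It went from 9.24, 9.32 and 9.19 to 9.07, 9.04 and 9.16 in HTOXAR3, by -0.16 ± 0.08, which did not pass. The difference was -0.77 ± 0.11 (adjusted p = 0.012), and it was lost with the mean of all 3 sequences or without HTOXAR3 OXA replicate 2. Of the other sequences of LINC01186, one gave -0.55 and the other -0.01.

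LINC00346, now PRECSIT and known as a p53-regulated transcript, rose from 8.82, 8.84 and 8.83 to 9.69, 9.74 and 9.74 in HT29. In HTOXAR3 it stood at 9.44, 9.35 and 9.35 untreated and at 9.56, 9.69 and 9.50 with OXA. The changes were 0.89 ± 0.08 (adjusted p = 1.4e-05) and 0.20 ± 0.08 (adjusted p = 1), and the difference of -0.69 ± 0.11 (adjusted p = 0.039) was lost under most arrays left out and with slide or replicate number as a block.

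LINC00565, now SWINGN, was well above background on all arrays of 5 groups but on 1 of 3 in untreated HTOXAR3. It rose in HT29 from 5.04, 5.20 and 4.87 to 6.72, 7.34 and 7.29, by 2.08 ± 0.16 (adjusted p = 3.5e-06, or by 1.19 with a background offset of 50), and its levels in HTOXAR3 were 5.07, 5.13 and 4.64 untreated and 5.49, 5.17 and 5.43 with OXA, a change of 0.42 ± 0.16 that did not pass. The difference was -1.66 ± 0.23 (adjusted p = 0.0094). SWINGN was named for GAS6, its nearest coding gene here at 98187 bp, but GAS6 was well above background on all 3 arrays in no group.

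For LINC01000 and LINC00685 the nearest coding gene on the array passed with OXA in HT29 as well. LINC01000 rose from 10.07, 10.11 and 9.89 to 10.98, 11.88 and 11.65, by 1.48 ± 0.19 (adjusted p = 0.00034), and FAM71F2 (now GARIN1A), 27813 bp away, by 1.40 ± 0.12 (adjusted p = 7.6e-06). LINC00685, on the pseudoautosomal end of X, rose by 1.05 while PPP2R3B, a phosphatase regulatory subunit gene 17800 bp away, fell by 2.27 (adjusted p = 5.0e-08). Of the 40 lincRNAs of the 218 that passed with OXA in HT29 and had a nearest coding gene detected on all 18 arrays, 19 had one that passed, 13 in the same direction and 6 in the opposite one. In HTOXAR3 this was 6 of 19, all in the same direction. Of the 17278 other names on all 18 arrays, 15.9% rose and 15.1% fell in HT29 and 10.2% rose and 9.80% fell in HTOXAR3, and the neighbour counts were not tested against these shares. The median distance between array sequences was 49776 bp in HT29 and 53010 bp in HTOXAR3.

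OXA plus Curcumin, against untreated cells, changed 65 of the 325 members in HT29 (39 higher, 26 lower), with 18.6% of all names passing. In HTOXAR3 it changed 46 (21 higher, 25 lower), with 17.5% of all names passing. Of the 218, 54 passed in HT29, 13.3% higher and 11.5% lower, against 17.7% and 18.1% of the others. In HTOXAR3 40 passed, 8.26% higher and 10.1% lower, against 16.6% and 16.9%. On both lists were 26 members, 48.1% of the HT29 list and 65% of the HTOXAR3 list, of which 15 rose and 11 fell in both. For the other names these shares were 71.3% and 76.0%.

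LINC01003, LINC00310 and LINC00886, which passed with OXA in both lines, also passed in both with OXA plus Curcumin. LINC01003 stood at 8.18, 8.18 and 8.38 in HT29 and at 8.38, 8.42 and 8.47 in HTOXAR3 with OXA plus Curcumin, changes of -1.57 ± 0.08 and -1.76 ± 0.08 (adjusted p = 8.7e-08 and 5.2e-08). LINC00310 was higher than untreated by 2.00 ± 0.12 and 1.64 ± 0.12 (adjusted p = 2.8e-07 and 2.2e-06). LINC00886 was higher by 1.51 ± 0.15 and 1.89 ± 0.15 (adjusted p = 2.4e-05 and 3.5e-06). With the mean of all sequences of a name the changes were 0.96 and 1.00 for LINC00310 and, in HTOXAR3, 1.06 for LINC00886. LINC01091, which had fallen with OXA in HT29, did not pass with the combination (-0.94 ± 0.28, adjusted p = 0.22). These comparisons use the same untreated arrays as those with OXA alone.

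LINC01315 fell in both lines with the combination. It went from 12.49, 12.50 and 12.30 to 11.65, 11.73 and 11.89 in HT29, by -0.67 ± 0.09 (adjusted p = 0.00056). In HTOXAR3 it went from 13.12, 13.03 and 12.98 to 11.79, 11.72 and 11.76, by -1.29 ± 0.09 (adjusted p = 1.5e-06). The difference between these responses did not pass (-0.61 ± 0.13, adjusted p = 0.21). LINC00483, now the coding gene ANKRD40CL, rose in HT29 from 5.94, 5.69 and 5.79 to 7.34, 7.47 and 7.45, by 1.61 ± 0.20 (adjusted p = 0.00027, or by 1.06 with a background offset of 50), and in HTOXAR3, where 1 group was not fully detected, changed by 0.06 ± 0.20.

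The response to the combination differed between the lines for 3 members (1 more positive and 2 more negative in HTOXAR3), against 0.856% of all names. Of the 218, 0.459% passed in each direction, against 0.648% and 0.995% of the others. LINC00162 again led, with 6.44, 6.78 and 6.83 in HT29 and 7.66, 7.75 and 7.85 in HTOXAR3 under OXA plus Curcumin, changes of -2.45 ± 0.09 and -0.26 ± 0.09 and a difference of 2.19 ± 0.13 (adjusted p = 1.9e-05). For LINC01186 the changes were 0.96 ± 0.08 and 0.19 ± 0.08 and the difference -0.77 ± 0.11 (adjusted p = 0.015), lost with the mean of its 3 sequences and without HT29 OXA plus Curcumin replicate 2 or untreated HTOXAR3 replicate 1 or 2. LINC00412, detected on 16 of 18 arrays, rose by 0.52 ± 0.12 in HT29 and fell by 0.54 in HTOXAR3, a difference of -1.06 ± 0.17 (adjusted p = 0.042) that was lost under both other scalings, with slide or replicate number as a block and under most arrays left out.

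**Figure D3:**
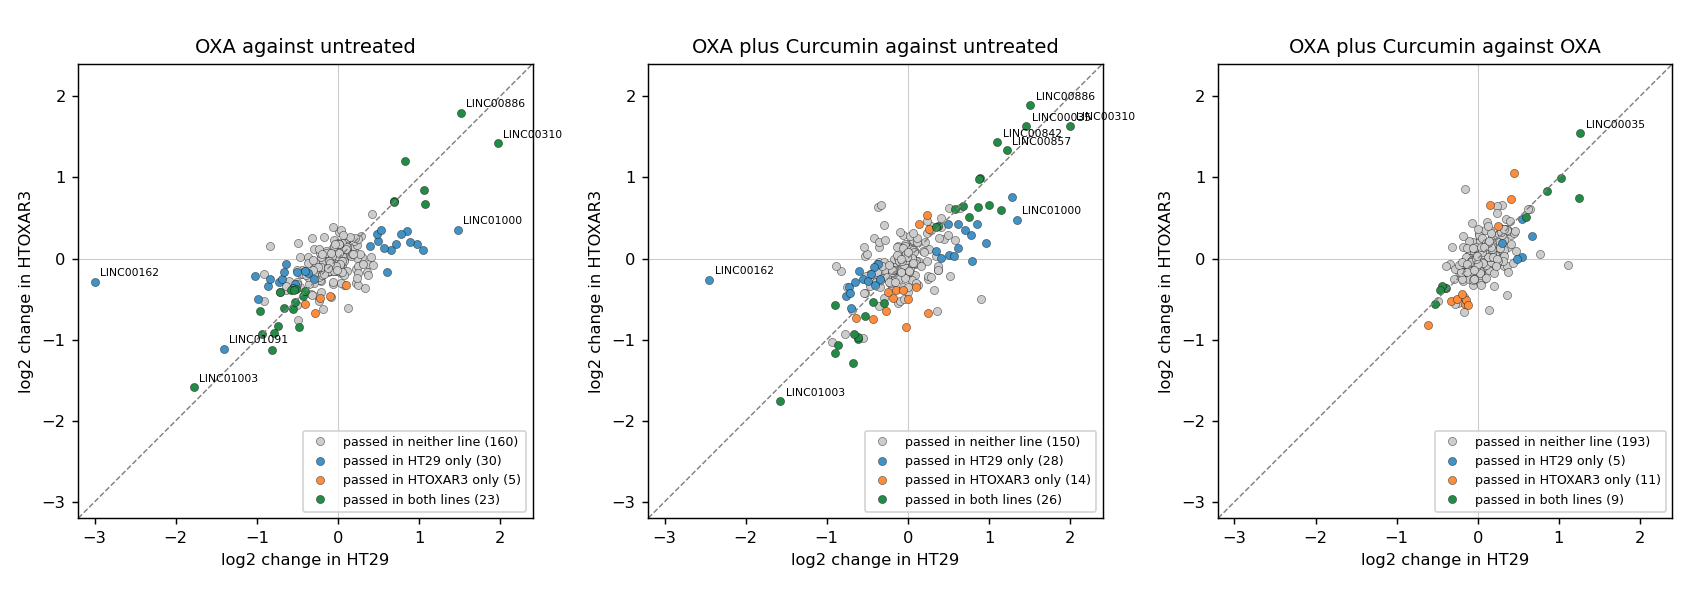
Fitted log2 change in HTOXAR3 (y axis) against that in HT29 (x axis) for the 218 lincRNAs well above background on all 18 arrays, in 3 comparisons. Each point is a lincRNA, coloured by the line or lines in which it passed, and the dashed line marks equal changes. With OXA, 23 passed in both lines, and LINC00162 lies alone at the far left at -3.00 in HT29.

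Adding Curcumin to OXA, compared with OXA alone, changed 14 of the 325 members in HT29 (10 higher, 4 lower), where 5.53% of all names passed. In HTOXAR3 it changed 21 (9 higher, 12 lower), where 8.83% of all names passed. Of the 218, 4.59% were higher and 1.83% lower in HT29, against 5.97% and 4.95% of the others. In HTOXAR3 4.13% were higher and 5.05% lower, against 8.52% and 8.86%. With the processed signal scaled to the 75th percentile, the HTOXAR3 split was 14 higher and 11 lower, so that 56.0% rather than 42.9% of calls were rises. On both lists were 9 members, 64.3% of the HT29 list and 45% of the HTOXAR3 list, 5 higher and 4 lower in both lines. For the other names the shares were 70.8% and 44.5%.

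LINC00035 showed the largest rise in both lines. It stood at 7.04, 7.10 and 7.06 with OXA and at 8.50, 8.24 and 8.25 with OXA plus Curcumin in HT29. In HTOXAR3 it stood at 6.59, 6.86 and 6.76 with OXA and at 8.16, 8.21 and 8.48 with both drugs. The changes were 1.26 ± 0.12 (adjusted p = 0.00012) and 1.55 ± 0.12 (adjusted p = 1.4e-05), and OXA alone had moved it by 0.20 ± 0.12 and 0.09 ± 0.12, without passing.

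RefSeq classes LINC00035 as a pseudogene, BICDL3P. The array sequence of ABHD11 is 376 bp away on the opposite strand, and ABHD11 did not pass, with changes of 0.21 ± 0.06 and 0.27 ± 0.06. LINC00942 went from 6.38, 6.39 and 6.43 to 7.49, 7.40 and 7.38 in HT29, by 1.03 ± 0.12 (adjusted p = 0.00082), and from 6.28, 6.07 and 5.92 to 6.92, 7.22 and 7.11 in HTOXAR3, by 0.99 ± 0.12 (adjusted p = 0.00070). Averaged with its second, undetected sequence, LINC00942 no longer passed, and its change in HTOXAR3 was 0.65 with a background offset of 50.

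LINC00704, which OXA had lowered in HT29, was raised by Curcumin in both lines. It reached 8.19, 7.91 and 7.74 in HT29, by 1.25 ± 0.10 over OXA alone (adjusted p = 2.4e-05), and 9.79, 9.80 and 9.80 in HTOXAR3, by 0.75 ± 0.10 (adjusted p = 0.0010). In HT29 the level with both drugs differed from untreated by 0.23 ± 0.10, which did not pass. LINC00162, lowered by OXA in HT29, was higher by 0.55 ± 0.09 when Curcumin was added (adjusted p = 0.013, or by 0.35 with a background offset of 50), a call lost on leaving out HT29 OXA replicate 1 or 2 or HT29 OXA plus Curcumin replicate 2 or 3. LINC00662 behaved like LINC00704, with OXA changes of -0.72 ± 0.09 and -0.42 ± 0.09 (adjusted p = 0.00026 and 0.038) and Curcumin changes of 0.86 ± 0.09 and 0.84 ± 0.09 (adjusted p = 0.00025 and 0.00019). Both Curcumin and OXA contrasts use the same OXA arrays, with opposite sign.

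LINC00460 went the other way. OXA raised it by 0.69 ± 0.07 in HT29 and 0.71 ± 0.07 in HTOXAR3, and Curcumin on top of OXA changed it by -0.44 ± 0.07 and -0.34 ± 0.07 (adjusted p = 0.0061 and 0.023). The HTOXAR3 call was lost with the mean of its sequences and on leaving out any single array of the HTOXAR3 OXA or OXA plus Curcumin groups, while the change stayed between -0.36 and -0.25 under all alternatives run. LINC00959 (now C10orf143) and LINC00984 (now INAFM2), both protein-coding in RefSeq, fell with Curcumin in both lines, LINC00959 by -0.53 ± 0.07 and -0.56 ± 0.07 and LINC00984 by -0.47 ± 0.07 and -0.39 ± 0.07. The HT29 call for LINC00959 was lost with the mean of all its sequences (adjusted p = 0.066). LINC01213 rose with Curcumin in HTOXAR3 from 8.62, 8.50 and 8.45 to 9.70, 9.38 and 9.66, by 1.06 ± 0.11 (adjusted p = 0.00026), while its change of 0.45 ± 0.11 in HT29 did not pass. Among members well above background on all arrays compared, the largest falls with Curcumin in HTOXAR3 were LINC00342 (-0.82), LINC01183 (-0.57) and LINC00659 (-0.56). A dimmer member that passed changed by -0.76. The calls for LINC00342 and LINC01183 were lost on leaving out any 1 of the 6 HTOXAR3 arrays compared. That for LINC01183 was also lost without some arrays not compared, any untreated HTOXAR3 array among them.

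**Figure D4:**
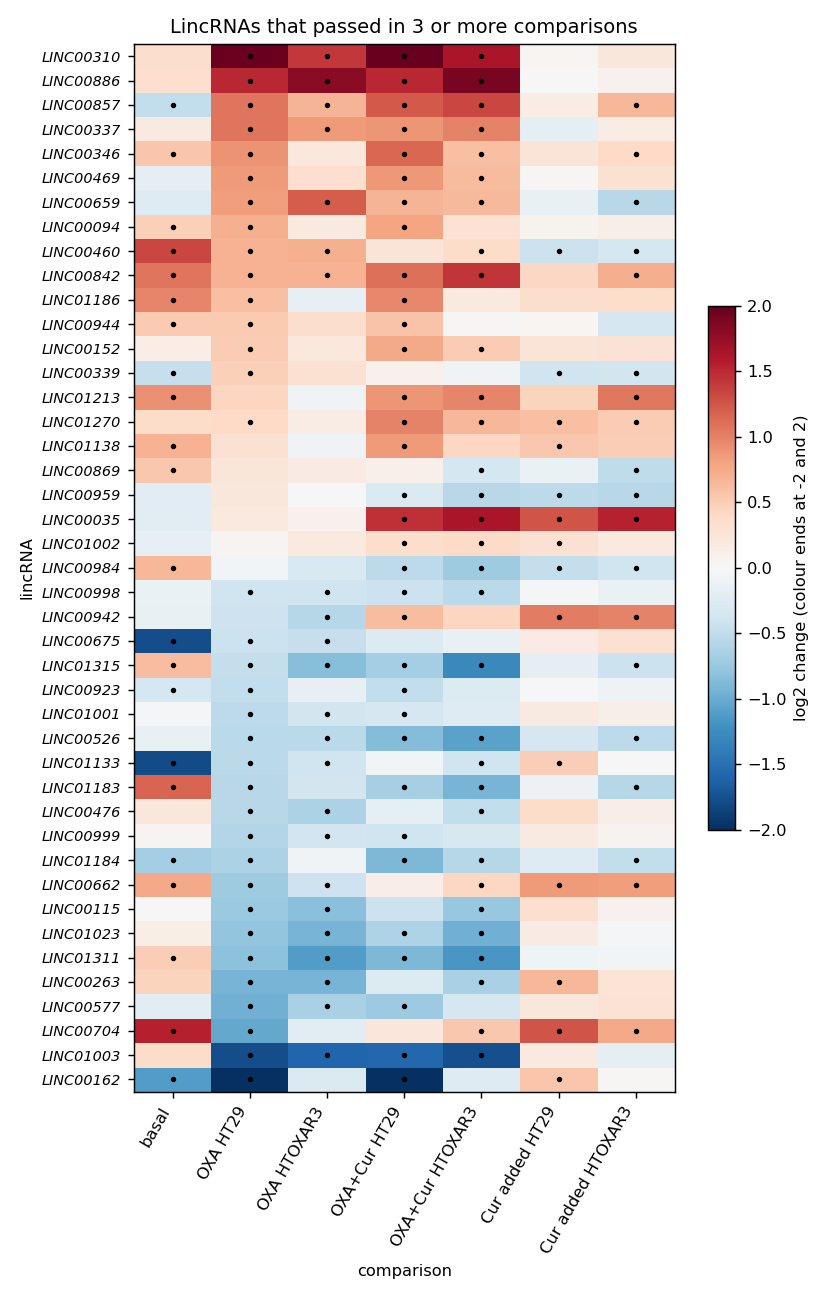
Fitted log2 change (colour, red higher and blue lower, ending at -2 and 2) of the 43 lincRNAs, among the 218, that passed in 3 or more of the 7 comparisons shown (columns). Dots mark changes that passed, and rows are ordered by the OXA change in HT29. LINC00310 and LINC00886 are at the top, LINC01003 and LINC00162 at the bottom, and LINC00035 is near white with OXA and red in the 4 columns with Curcumin.

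Across all 9 comparisons, 132 of the 218 members passed in none and 86 in at least 1, and 17 passed in 5 or more. Those that passed in 6, 8 in number, were LINC00162, LINC00346, LINC00460, LINC00662, LINC00704, LINC00842, LINC00857 and LINC01315. Over the 17278 other names on all 18 arrays, 58.7% passed in at least 1 comparison, 10.6% in 5 or more and 3.7% in 6 or more, against 39.4%, 7.8% and 3.67% of the 218. Arrays with the same scan date in the file headers were taken to lie on 1 slide, which gave 3 slides. Slide 1 held 2 arrays, 1 of untreated HT29 and 1 of HT29 with OXA, while slides 2 and 3 held 8 arrays each and all 6 groups, so slide was partly tied to line and treatment. In the 7 comparisons other than those between lines, each member of the 218 that passed had the same sign within every slide that held both groups, which is a description, since those arrays also made the calls.

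The 16 members on all 18 arrays that RefSeq now classes as protein-coding are counted apart. With OXA in HT29, 8 of 16 passed (3 higher, 5 lower), against 45 of the 201 classed as noncoding (18 higher, 27 lower). In HTOXAR3 the counts were 2 of 16 and 26 of 201. At baseline they were 5 of 16 and 26 of 201, and with OXA plus Curcumin 6 of 16 and 47 of 201 in HT29 and 5 of 16 and 34 of 201 in HTOXAR3. Of the 17278 other names on all 18 arrays, 15.9% rose and 15.1% fell with OXA in HT29 and 10.2% and 9.80% in HTOXAR3, 11.5% and 10.1% were higher and lower at baseline, and 17.7% and 18.1% rose and fell with OXA plus Curcumin in HT29 and 16.6% and 16.9% in HTOXAR3. The counts are small and were not tested against each other.

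Members named after a coding partner allow the pair to be read together. There were 9 pairs with both on all 18 arrays. LINC00337 (ICMT-DT) rose from 5.63, 5.43 and 5.34 to 6.71, 6.30 and 6.60 with OXA in HT29, by 1.07 ± 0.11, and by 0.85 ± 0.11 in HTOXAR3 (adjusted p = 4.5e-05 and 0.00079). ICMT, the gene for isoprenylcysteine carboxyl methyltransferase, changed by -0.78 ± 0.10 and -0.52 ± 0.10 (adjusted p = 0.00059 and 0.027). With OXA plus Curcumin the same opposition was seen, LINC00337 at 0.89 and 0.99 and ICMT at -1.09 and -1.04.

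LINC01184 (SLC12A2-DT) and SLC12A2, the gene for a sodium-potassium-chloride cotransporter, fell together. LINC01184 changed by -0.90 ± 0.07 in HT29 and by -0.57 ± 0.07 in HTOXAR3 under the combination (adjusted p = 5.5e-06 and 0.00045), and SLC12A2 by -0.71 ± 0.08 and -0.99 ± 0.08 (adjusted p = 5.8e-05 and 3.0e-06). Under OXA in HT29, 3 of the 9 lincRNAs and 5 of the 9 partners passed, 2 pairs jointly and 1 of those in the same direction. Under the combination in HTOXAR3 these counts were 4, 6, 4 and 3. Of the 17278 other names, 15.9% rose and 15.1% fell with OXA in HT29, and 16.6% and 16.9% with the combination in HTOXAR3.

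Of the 325 members, 207 had more than 1 sequence on the array, and 60 had at least 2 detected on all 18 arrays. Fitted one by one, the other sequences of members that passed mostly agreed in sign. This was so for 27 of 28 at baseline, 31 of 35 with OXA in HT29, 22 of 25 with OXA in HTOXAR3 and 33 of 34 with OXA plus Curcumin in HTOXAR3. With OXA plus Curcumin in HT29 it held for 37 of 61, and 14 sequences passed in the opposite direction. All 14 belonged to LINC00963. One sequence of LINC00869 also passed in the opposite direction to its brightest, at baseline (-0.77 against 0.55) and with OXA plus Curcumin in HTOXAR3 (0.55 against -0.35), and it lies elsewhere on chromosome 1.

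LINC00963 had 25 sequences on the array, 20 of them detected on all 18 arrays. The brightest, which stands for the gene in the counts above, was fitted here as a sequence of its own and changed by -0.70 ± 0.15 with OXA plus Curcumin in HT29 (adjusted p = 0.035) and by -0.61 ± 0.15 in HTOXAR3 (adjusted p = 0.095). It shares a run of 31 bases with the array sequences of 2 other names, which changed by -0.66 ± 0.16 and -0.65 ± 0.15 in HT29 without passing (adjusted p = 0.063 and 0.051), so its value cannot be assigned to LINC00963 alone. The other 19 were positive in both lines, from 0.13 to 0.75 in HT29, where 14 passed, and from 0.03 to 0.74 in HTOXAR3, where 12 passed. Of the 5 sequences detected on fewer arrays, one detected on 16 arrays changed in the same direction as the brightest, by -1.05 ± 0.26 in HT29 (adjusted p = 0.087) and -1.67 ± 0.26 in HTOXAR3 (adjusted p = 0.0026), and one on 15 arrays rose in both lines, by 0.53 ± 0.12 and 0.86 ± 0.12 (adjusted p = 0.035 and 0.00072). The next brightest, printed above, changed by 0.47 ± 0.07 and 0.43 ± 0.07 (adjusted p = 0.0012 and 0.0026).

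Most of the 19, 12 in number, lie 1153 to 1573 bp downstream of the brightest sequence of LINC00963. Among the members, 14 shared a run of 20 or more bases with another gene name on the same strand.

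**Figure D5:**
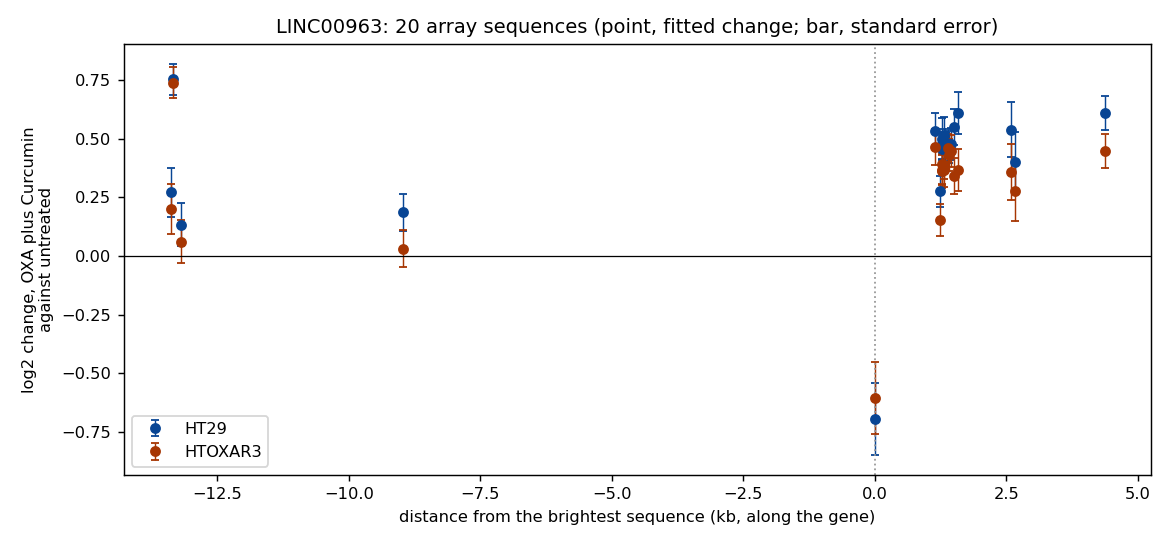
Fitted log2 change with OXA plus Curcumin against untreated (y axis) for the 20 sequences of LINC00963 detected on all 18 arrays, by distance along the gene from the brightest sequence in kb (x axis). Points are fitted changes and bars standard errors, blue for HT29 and brown for HTOXAR3. The brightest sequence at 0 is at -0.70 and -0.61, and the other 19 lie above the zero line.

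Several members are well known from tumours. LINC00152, or CYTOR, rose with OXA in HT29 by 0.50 ± 0.07 (adjusted p = 0.00065) and with OXA plus Curcumin by 0.76 ± 0.07 in HT29 and 0.51 ± 0.07 in HTOXAR3 (adjusted p = 1.1e-05 and 0.00047). LINC00657, or NORAD, which binds Pumilio proteins and is tied to genome stability, fell in HTOXAR3 by 0.46 with OXA and by 0.39 with the combination (adjusted p = 0.021 and 0.039), and the OXA call was lost on leaving out any 1 of the HTOXAR3 arrays it compares. The call for the combination was lost with the mean of its sequences and on leaving out any 1 of 15 of the 18 arrays, arrays not compared among them. LINC00467 was lower in untreated HTOXAR3 by -0.37 ± 0.06 (adjusted p = 0.0070), a call lost without untreated HTOXAR3 replicate 3.

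LINC00176 fell in HT29 with OXA by 0.98 (adjusted p = 0.0011), and LINC00094, now BRD3OS, rose by 0.72 ± 0.07 (adjusted p = 2.9e-05). LINC00673 and LINC00665, detected on all 18 arrays, passed in none of the 9 comparisons. LINC00511, LINC00312 and LINC00707 passed in none either but were well above background on all 3 arrays in only 3, 4 and 5 of the 6 groups. LINC00472 had values on 12 arrays, the rest carrying outlier flags, and on 1 array with OXA plus Curcumin in HTOXAR3, too few to read its comparisons there. LINC00261, LINC00520, LINC00116 and LINC01021 did not meet the detection rule.

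Other long noncoding RNAs, from a list of 70 of which 63 were on the array and 46 detected on all 18 arrays, give the wider setting. With OXA, 6 rose and 14 fell in HT29, and 3 rose and 11 fell in HTOXAR3. In percent of the 46 this was 13% and 30.4% in HT29 and 6.52% and 23.9% in HTOXAR3, where 15.9% and 15.1%, and 10.2% and 9.80%, of the 17278 names other than the lincRNAs rose and fell. With OXA plus Curcumin 10 rose (21.7%) and 11 fell (23.9%) in each line, against 17.7% and 18.1% of those names in HT29 and 16.6% and 16.9% in HTOXAR3. UCA1, which is raised in many carcinomas, rose by 2.26 ± 0.10 and 1.51 ± 0.10 with OXA (adjusted p = 1.8e-08 and 3.3e-06). Of 9 small nucleolar RNA host genes (SNHG names) in the list, 5 fell and 1 rose with OXA in HT29 and 2 fell in HTOXAR3. SNHG3 and SNHG5 fell in both lines, SNHG3 by -0.74 ± 0.08 and -0.73 ± 0.08 and SNHG5 by -0.65 ± 0.06 and -0.68 ± 0.06, while SNHG7 rose in HT29 by 2.01 ± 0.23.

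TERC, the RNA template of telomerase, fell with OXA by -1.45 ± 0.10 in HT29 and -1.23 ± 0.10 in HTOXAR3 (adjusted p = 1.7e-06 and 2.0e-05). When Curcumin was added to OXA, 6 of the list rose and 2 fell in HT29 (13% and 4.35%, against 5.97% and 4.95% of the other names) and 10 rose and 2 fell in HTOXAR3 (21.7% and 4.35%, against 8.52% and 8.86%). LUCAT1, a stress-responsive transcript, rose by 1.82 ± 0.15 and 1.63 ± 0.15 and MIR22HG, the host of miR-22, by 1.2 ± 0.07 and 1.04 ± 0.07, in HT29 and HTOXAR3.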

How the data were processed

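RNA of HT29 and HTOXAR3 cells was labelled with Cy3 and hybridised to 1-colour Agilent human arrays, 1 array for each of 18 samples in 6 groups of 3. Per the file headers, the authors extracted spots with Feature Extraction 10.7.3.1 against GRCh37 annotation. The deposited values used here are linear spot and local background intensities, not normalized between arrays. A deposited table of log2 values made by the authors carries no probe or gene names and was not used.

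Following the study's methods, intensities were background-corrected by normexp and quantile-normalized on the log2 scale, here with limma 3.58.1 in R 4.3.3. The offset of 0 was chosen here, as were leaving out outlier-flagged spots, averaging replicate spots and keeping the sequence with the highest mean for each of 36204 gene names. Of these names 8947 had more than 1 sequence. One limma model (lmFit and eBayes) with a term for each group was fitted to all arrays. The threshold was a Benjamini-Yekutieli adjusted p below 0.05 with a fold change above 1.2. Replicates are labelled as biological, but whether they came from separate cultures is not stated beyond that, so p-values measure the spread between these samples. The number of arrays limits the precision. On simulated data for 17440 names, 55% of known log2 changes of 0.5 and 87% of changes of 1 with OXA in HT29 were found. In that simulation few names were changed, noise was independent between arrays and adjustment ran over 17440 names, not 36204. Its shares therefore need not hold for the real comparisons.

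Named lincRNAs are the 3 largest rises and falls per comparison among called members detected in the groups compared, all members called between the lines, and a list of well-known names. Others singled out (among them LINC00659, LINC00662, LINC00857, LINC00842, LINC00942, LINC00963 and the coding partners) were chosen after their values were seen. The members, the lists of other genes and the tests were chosen with earlier results of these data known. Replicate numbers were not taken to pair samples, and slide, inferred from the scan date in the file headers, was no term of the model. Other settings tried were a background offset of 50, averaging all probes of a name, leaving out dim probes, scaling to the 75th percentile, Benjamini-Hochberg adjustment, blocks for slide and replicate, each array left out and, added after seeing the data, each sequence fitted on its own. Scripts used Python 3.11.15, pandas 2.3.3 and data.table (version 1.17.8), and matplotlib 3.10.9 drew the figures. One array sequence and one marker gene are not reported here.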

Additional observations from a re-analysis of the deposited data

Results flagged for a closer look

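The lincRNAs listed here had responses that differed between the lines in a test of the difference itself (limma, HTOXAR3 minus HT29, log2, Benjamini-Yekutieli adjusted over all names). The OXA dose differed between the lines as well. With OXA the differences were 2.72 for LINC00162, -0.69 for LINC00346, -1.66 for LINC00565, 0.80 for LINC00704 and -0.77 for LINC01186. With OXA plus Curcumin they were 2.19 for LINC00162, -1.06 for LINC00412 and -0.77 for LINC01186. Both differences of LINC00162 and that of LINC00565 kept their call under every alternative run, from 2.11 to 2.91 and from 1.78 to 2.37 for LINC00162 and from -1.97 to -1.02 for LINC00565, the smallest with a background offset of 50. The difference of LINC00412 ran from -1.54 to -0.44, and its call was lost under 18 alternatives. In untreated HTOXAR3 LINC00565 was well above background on 1 of 3 arrays. LINC00412 was so on 2 of 3, there and in HTOXAR3 with OXA plus Curcumin. Of the lincRNAs listed, LINC00412 was the only one whose changes passed in both lines with opposite signs. These changes were 0.52 ± 0.12 in HT29 and -0.54 ± 0.12 in HTOXAR3. The same untreated arrays enter both sets of differences.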

How the results depend on the processing

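Each count of lincRNAs that passed, over all 325 members, was recomputed under the alternatives, and so were 68 changes of named lincRNAs. Of 1700 such recomputed changes none reversed, 1572 kept their call and 128 lost it, 110 of them with 1 array left out. Shares over all names were not computed under the alternatives, so the counts that follow do not set lincRNAs against other names. With Benjamini-Hochberg in place of Benjamini-Yekutieli adjustment, the basal count was 63 rather than 38. For OXA it was 51 rather than 30 in HTOXAR3 and 13 rather than 5 between the lines. For OXA plus Curcumin it was 87 rather than 46 in HTOXAR3 and 15 rather than 3 between the lines, and for Curcumin added to OXA 36 rather than 14 in HT29 and 42 rather than 21 in HTOXAR3. With dim probes left out, which tests fewer names, the counts were 34 for Curcumin added in HTOXAR3, 8 between the lines for OXA and 6 for OXA plus Curcumin. With a background offset of 50 the last pair became 9 and 6, and with the mean of all probes the OXA count between the lines was 3. The cause of the changes was not tested.

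Leaving out 1 array at a time gave 31 to 41 for the basal count, 46 to 59 for OXA in HT29, 18 to 29 for OXA in HTOXAR3 (18 without HTOXAR3 OXA replicate 1), 54 to 68 for OXA plus Curcumin in HT29 and 34 to 54 in HTOXAR3. It gave 9 to 13 for Curcumin added in HT29 (9 without replicate 2 of either HT29 group compared) and 12 to 23 in HTOXAR3 (12 without replicate 3 of either group compared). Between the lines it gave 3 to 6 for OXA, with 3 on leaving out any untreated array, HT29 OXA replicate 2 or 3, HTOXAR3 OXA replicate 1 or 2 or any HTOXAR3 OXA plus Curcumin array. For OXA plus Curcumin it gave 1 to 3, with 1 without HT29 OXA plus Curcumin replicate 2 or untreated HTOXAR3 replicate 1 or 2.

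The median correlation of deviations from the group means was 0.14 for same-numbered replicates (-0.223 to 0.413, 28 of 45 pairs above 0.1). It was -0.12 for other numbers. For arrays on the same slide it was 0.191 (38 of 53 above 0.1), against -0.139 for other slides. Replicates of the same number and arrays of the same slide were thus more alike, a structure the main model leaves out. Both were tried as blocks instead. With slide as a block the counts were 36 at baseline, 62 and 32 for OXA in HT29 and HTOXAR3, 63 and 51 for OXA plus Curcumin, 12 and 23 for Curcumin added, and 4 and 3 between the lines. With the replicate block the counts were 36 at baseline, 60 and 30 for OXA in HT29 and HTOXAR3, 66 and 45 for OXA plus Curcumin, 13 and 21 for Curcumin added, and 4 and 2 between the lines for OXA and OXA plus Curcumin. Scaling the processed signal to the 75th percentile moved the median of all names to -0.194 for OXA and -0.185 for OXA plus Curcumin in HTOXAR3, from 0.009 and -0.009. Changes are relative to that shift. Signals near background limit the values of members detected in few groups.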
